A study of Homo sapiens with 18 samples.

Results

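Human chromosome 19 carries the densest collection of C2H2 zinc finger genes in the genome, and 102 of them with a numbered ZNF symbol were measured in Ewing sarcoma cells exposed to, or made resistant to, the small molecule YK-4-279. The genes were picked by a rule of name and place, set with earlier results of these data known. It took every probe set whose single gene symbol begins with ZNF and a number and whose first alignment is on chromosome 19. That rule gave 118 probe sets of 20374 with a single gene, and 102 genes of 12750. RefSeq lists 100 of the 102 as protein coding and 2, ZNF137P and ZNF702P, as pseudogenes. Of the members, 27 lie on the short arm and 75 on the long arm.

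C2H2 zinc finger proteins bind DNA through arrays of fingers, each of which reads a few bases. Most of the chromosome 19 genes arose by tandem duplication in primates and other mammals, and many encode a KRAB domain, which recruits the scaffold protein TRIM28 and, through it, the histone methyltransferase SETDB1, HP1 proteins and the NuRD deacetylase complex. Such proteins are known above all for silencing retrotransposons. Because of the duplications the genes sit in clusters of close relatives, and a short probe for one member can read another.

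The cells were TC32 and TC71, established Ewing sarcoma lines driven by the fusion of the EWSR1 gene with an ETS transcription factor gene. YK-4-279 was developed to block the binding of the EWS-FLI1 fusion protein to RNA helicase A. Total RNA of 18 samples was hybridised to Affymetrix HGU133A arrays of the second version, in 6 groups of 3 arrays. The first group of each line was kept in 3 µM YK-4-279 for up to 72 h. The second group of each line consisted of clones selected in rising doses of up to 3 µM over 7 months, named C1, C4 and CP in TC32 and C3, C4A and C5 in TC71. The third group was the untreated, sensitive parental line. The labels mark the clones as resistant and treated. Beyond that, the presence of the compound in the clones' medium when RNA was taken is not stated, nor is it stated that the 3 arrays of the other groups came from independent cultures. The p-values therefore cover array-to-array spread, which may be technical. The 3 arrays of a resistant group are 3 different clones, and each clone has 1 array.

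Deposited values are log2 expression of a probe set relative to its own median over the 18 arrays. They carry no level, so genes cannot be ranked by abundance, and a value near 0 on every array can belong to a silent or to a stable gene. A gene's value is the mean of its probe sets. In all, 36 members (35.3%) varied with a standard deviation (SD) below 0.05 across all 18 arrays, against 31.4% of all genes, and 62 members had an SD of at least 0.1. The lines could not be checked by the presence of marker genes on such a scale. Of 10 Ewing sarcoma markers, 9 were measured and none of those 9 had an SD under 0.05, while 12 of 19 measured markers of blood, epithelium, endothelium, fibroblasts and muscle did. Of those 19, only KRT18, an epithelial keratin, passed the test in any of the comparisons below: it was lower in the TC32 clones (change -3.86, adjusted p = 0.00515 by limma). The other epithelial markers did not follow it there (KRT8 0.01, EPCAM 1.16 and CDH1 0.003, none called). Of the Ewing sarcoma markers only CCND1 passed, higher in the clones of TC32 (0.59, adjusted p = 0.0413) and of TC71 (1.16, adjusted p = 0.00497). The part of these genes in the results below was not tested.

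Several arrays stood apart from their labels. Over the 1794 genes with an SD above 0.5, the array of TC32 parental 1 differed from TC71 parental 1 by a root mean square of 0.69, less than from any other array, while TC32 parental 2 and 3 differed by 0.51. TC71 parental 2 was closest to TC71 72 h array 1, at 0.68. TC71 72 h arrays 1 and 3 were the closest pair of all, at 0.25. Where leaving out TC32 parental 1 or TC71 parental 2 moved a call of a gene described below, the value without it is given.

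The promoters of the leading genes are shown first, since they differ in CG content and in the motifs they hold. RefSeq promoter windows (GRCh38.p14, 250 bases before to 50 after a start) were matched for 88 of the 102 members. The windows below belong to ZNF83 and ZNF468, whose changes in the clones of the 2 lines lay furthest apart, to ZNF177, and to the 3 genes of the centromeric cluster that stood highest above the parental mean in TC71 clone C3, ZNF91, ZNF43 and ZNF93. They are printed 5′ to 3′ on the gene's strand, with each CG in capitals. The table holds 2 windows for ZNF83, at chr19:52690447-52690746 and chr19:52638306-52638605 (minus strand). ZNF468 is at chr19:52857570-52857869 (minus strand) and ZNF177 at chr19:9362763-9363062 (plus strand).
ZNF83 window 1: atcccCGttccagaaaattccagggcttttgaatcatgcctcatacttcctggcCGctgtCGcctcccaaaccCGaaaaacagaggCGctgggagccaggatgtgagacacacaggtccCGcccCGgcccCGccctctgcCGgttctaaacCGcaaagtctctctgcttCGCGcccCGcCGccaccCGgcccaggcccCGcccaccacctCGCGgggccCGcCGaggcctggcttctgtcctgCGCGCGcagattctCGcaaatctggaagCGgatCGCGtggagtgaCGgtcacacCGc
ZNF83 window 2: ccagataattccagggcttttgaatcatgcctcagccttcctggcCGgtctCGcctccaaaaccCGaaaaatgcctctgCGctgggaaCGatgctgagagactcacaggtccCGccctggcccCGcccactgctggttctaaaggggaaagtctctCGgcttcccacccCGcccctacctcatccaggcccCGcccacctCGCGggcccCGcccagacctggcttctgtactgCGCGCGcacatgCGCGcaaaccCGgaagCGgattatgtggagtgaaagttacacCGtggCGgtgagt
ZNF468: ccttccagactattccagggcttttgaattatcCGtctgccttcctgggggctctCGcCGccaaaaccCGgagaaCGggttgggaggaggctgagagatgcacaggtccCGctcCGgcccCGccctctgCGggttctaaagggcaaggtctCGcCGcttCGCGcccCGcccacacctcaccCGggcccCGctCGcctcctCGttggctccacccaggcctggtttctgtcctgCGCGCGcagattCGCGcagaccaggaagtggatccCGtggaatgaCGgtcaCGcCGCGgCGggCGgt
ZNF177: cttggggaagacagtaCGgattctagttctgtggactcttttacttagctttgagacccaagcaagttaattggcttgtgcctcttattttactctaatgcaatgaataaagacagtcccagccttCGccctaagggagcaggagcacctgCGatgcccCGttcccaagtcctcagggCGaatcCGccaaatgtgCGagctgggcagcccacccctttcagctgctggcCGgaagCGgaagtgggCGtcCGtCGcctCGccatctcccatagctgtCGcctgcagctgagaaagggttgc

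The ZNF83 windows held 29 and 22 CG and the ZNF468 window 30, against 14 in the ZNF177 window. The next 3 windows, from the centromeric cluster, are those of ZNF91 at chr19:23395422-23395721 (minus strand), ZNF43 at chr19:21836133-21836432 (minus strand) and ZNF93 at chr19:19900696-19900995 (plus strand).
ZNF91: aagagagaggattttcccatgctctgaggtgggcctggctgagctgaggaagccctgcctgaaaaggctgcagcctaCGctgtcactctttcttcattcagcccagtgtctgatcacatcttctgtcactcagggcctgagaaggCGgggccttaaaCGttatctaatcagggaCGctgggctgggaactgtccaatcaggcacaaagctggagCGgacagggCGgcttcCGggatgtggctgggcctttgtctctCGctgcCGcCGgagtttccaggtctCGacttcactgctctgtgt
ZNF43: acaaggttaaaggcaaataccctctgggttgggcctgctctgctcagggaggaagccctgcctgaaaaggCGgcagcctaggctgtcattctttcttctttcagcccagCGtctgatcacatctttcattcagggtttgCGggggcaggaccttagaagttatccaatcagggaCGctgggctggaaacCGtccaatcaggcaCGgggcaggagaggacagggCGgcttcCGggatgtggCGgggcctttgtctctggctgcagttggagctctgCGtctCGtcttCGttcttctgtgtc
ZNF93: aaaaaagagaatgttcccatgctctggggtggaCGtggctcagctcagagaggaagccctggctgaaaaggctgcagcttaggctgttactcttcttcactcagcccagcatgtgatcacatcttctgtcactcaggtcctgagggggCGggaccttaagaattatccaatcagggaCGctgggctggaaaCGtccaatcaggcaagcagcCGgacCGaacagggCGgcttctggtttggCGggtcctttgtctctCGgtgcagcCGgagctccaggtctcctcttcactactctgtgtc

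These windows held 11, 12 and 10 CG for ZNF91, ZNF43 and ZNF93. Over the 88 matched members the median was 19.5 CG, against 14 over 27305 genes of the table. A search of both strands for 4 short motifs found one of them in many members. CCGGAAG, the core that ETS factors such as FLI1 are known to read, was in the windows of 46 of 88 members (52.3%) and of 12.2% of all 27305 genes. It was in window 2 of ZNF83 and in the windows of ZNF177, ZNF91 and ZNF43, and absent from window 1 of ZNF83 and from those of ZNF468 and ZNF93. TATAAA, the TATA box core, was in 1 of 88 members (1.14%) against 14.0% of all genes, and GCCATNTT, the core read by YY1, in 14 (15.9%) against 7.97%. GGAAGGAA, a repeat of the ETS core of the kind EWS-FLI1 binds, was in 3 (3.41%) against 4.50%. The shares were not matched for CG content, and CCGGAAG itself holds a CG. Because most of these genes arose by duplication, matches in related windows are not independent. A letter match is no evidence that a factor binds there.

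By the array's own coordinates (their genome build is not given in the sources used here), 85 members fell into 5 clusters of at least 5 genes with starts no more than 1 Mb apart, and 17 stood isolated. The clusters were 19p13.2 (5 genes, 12.04 to 12.55 Mb), 19p13.11-p12 (15 genes, 19.82 to 24.31 Mb), 19q13.31 (14 genes, 44.10 to 45.00 Mb), 19q13.41-q13.42 (19 genes, 52.07 to 54.08 Mb) and 19q13.42-q13.43 (32 genes, 56.15 to 58.99 Mb). CCGGAAG was unevenly spread among them: it was in 11 of 13 matched genes of 19p13.11-p12, 3 of 11 of 19q13.31, 9 of 15 of 19q13.41-q13.42, 19 of 29 of 19q13.42-q13.43, 4 of 15 isolated genes and none of the 5 of 19p13.2.

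**Figure D1:**
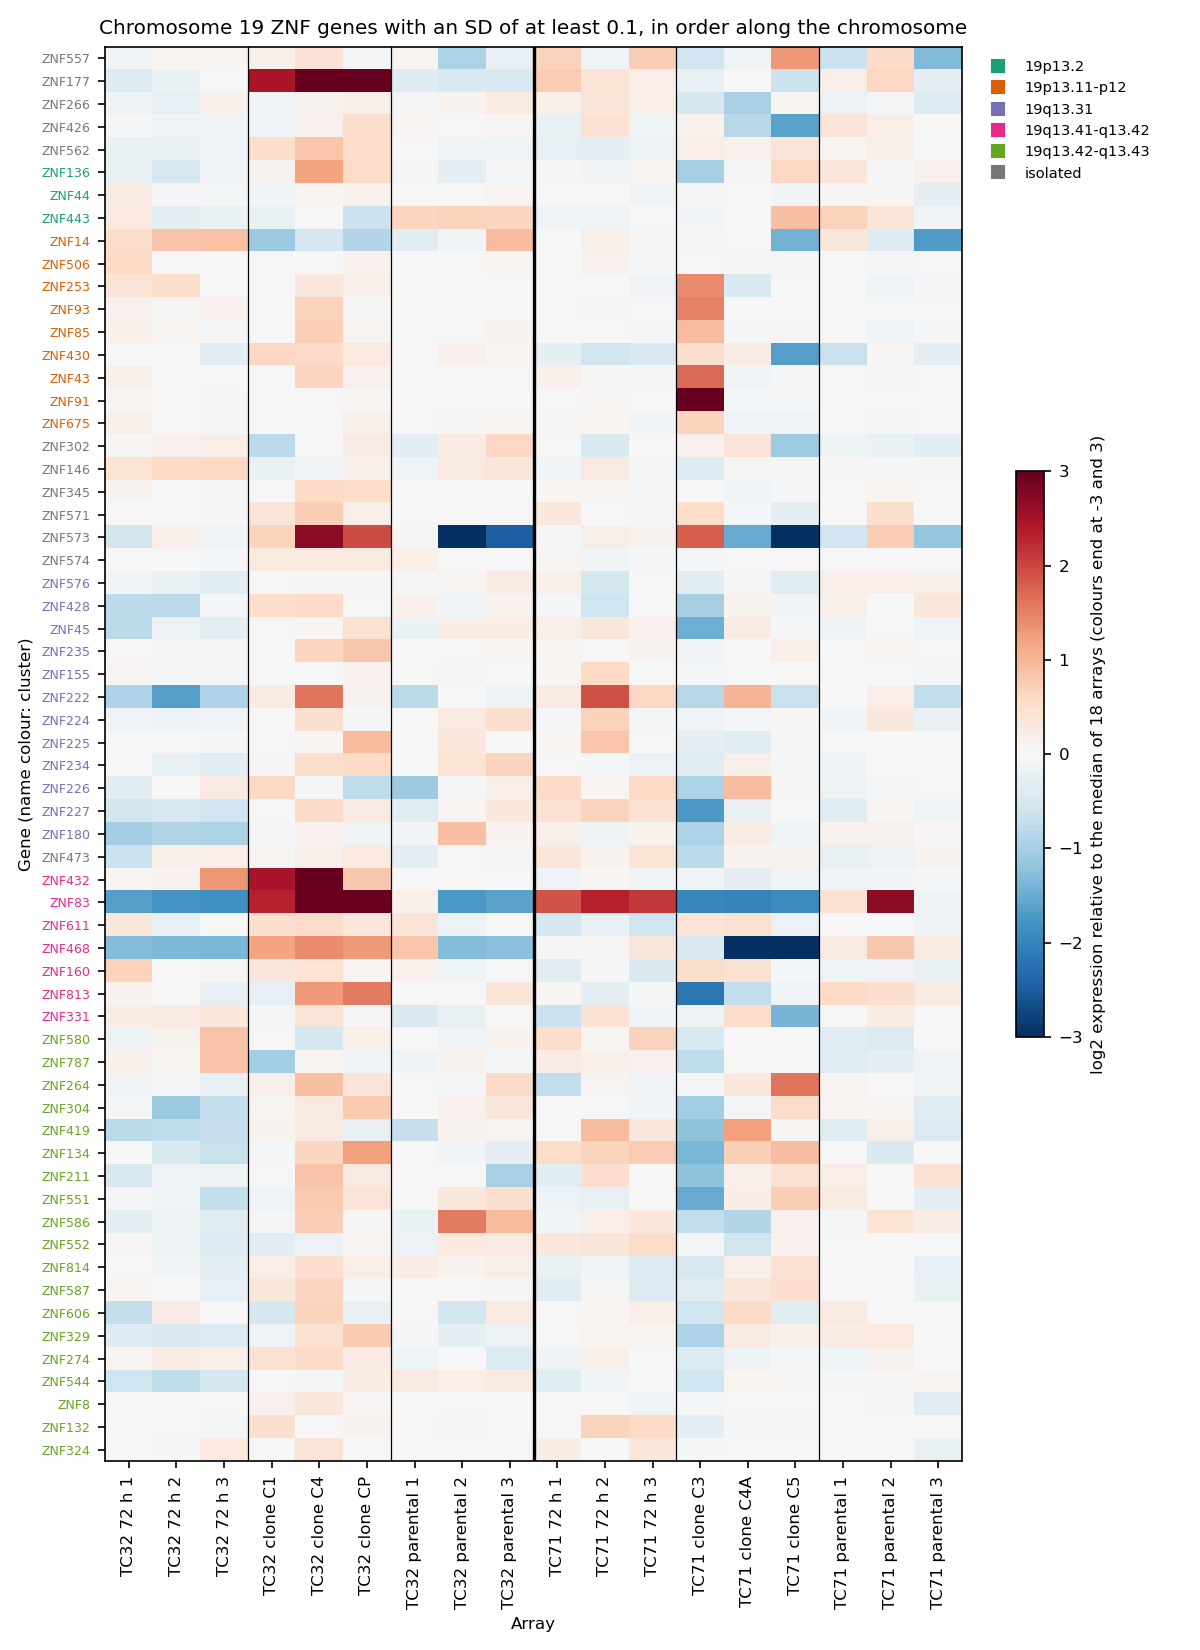
Log2 expression relative to the median of 18 arrays (colour, ending at -3 and 3) for the 62 members with an SD of at least 0.1, in order along chromosome 19 from top to bottom, one column per array. The dark cells gather in few rows: ZNF83, ZNF468, ZNF573, ZNF177, ZNF432 and, in clone C3 of TC71, ZNF91.

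The 4 members that varied most, each with an SD above 1 over the 18 arrays, were ZNF83 (2.09), ZNF468 (1.70), ZNF573 (1.62) and ZNF177 (1.47). All 4 reached their highest value of the 18 arrays in a TC32 clone.

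ZNF83, at 53.12 Mb in the 19q13.41-q13.42 cluster, changed in opposite directions in the clones of the 2 lines. It was 2.30, 3.47 and 3.24 in TC32 clones C1, C4 and CP, against 0.15, -1.73 and -1.60 in the TC32 parental arrays. In TC71 it was -1.96, -2.00 and -1.91 in clones C3, C4A and C5, against 0.42, 2.69 and -0.15 in the parental arrays. Clones and parental arrays did not overlap in either line, and the TC71 clones had almost the same value. After 72 h the gene was -1.66, -1.78 and -1.85 in TC32 and 1.88, 2.34 and 2.11 in TC71, values inside or near the parental range of each line. In the limma model of all genes ZNF83 rose by 4.06 in the TC32 clones (SE 0.63, adjusted p = 0.00387) and fell by 2.94 in the TC71 clones (SE 0.63, adjusted p = 0.046). The change in TC32 exceeded that in TC71 by 7.01 (SE 0.89, adjusted p = 0.00657). The fall in TC71 did not pass the threshold in any of 6 fits that left out 1 array (adjusted p up to 0.109), and without TC71 parental 2 it was -2.09. Without TC32 parental 1 and TC71 parental 2 together, the rise was 4.67 (adjusted p = 1.45e-05), the TC71 change -2.09 (adjusted p = 0.00837) and the difference between the lines 6.76 (adjusted p = 1.41e-05).

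The spread of ZNF83 among untreated cells was as wide as some of these changes. One array of each line, TC32 parental 1 and TC71 parental 2, lay far above the other 2 of its group. The 2 parental lines differed by -2.05 (TC32 minus TC71), which did not pass the test (adjusted p = 0.288 by limma). ZNF83 is read by 1 probe set of a kind (suffix s) that can match several transcripts, so no second probe set was there to compare.

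ZNF468, a neighbour of ZNF83 at 53.34 Mb, had changes of the same signs that did not pass the test on all arrays. It was 1.18, 1.41 and 1.28 in the TC32 clones against 0.82, -1.30 and -1.25 in parental TC32. In TC71 it was -0.42, -4.56 and -4.25 in clones C3, C4A and C5 against 0.28, 0.80 and 0.27 in the parental arrays. The groups did not overlap in either line, but clone C3 stood far from the other TC71 clones and TC32 parental 1 far from the other TC32 parental arrays. The changes were 1.86 in TC32 (SE 0.85, adjusted p = 0.242) and -3.52 in TC71 (SE 0.85, adjusted p = 0.0711), and the difference between the lines 5.39 (adjusted p = 0.0885). Without clone C3 the TC71 change was -4.85 and passed (adjusted p = 0.0015), as did the difference between the lines (6.72, adjusted p = 0.00107). The difference also passed without TC32 parental 1 (6.09, adjusted p = 0.0245) and with genes of an SD under 0.1 left out (adjusted p = 0.0432), but not without TC32 parental 1 and TC71 parental 2 together (5.91, adjusted p = 0.0512). The TC71 change passed with that SD filter too (adjusted p = 0.0357). In TC32 the change without TC32 parental 1 was 2.56 (adjusted p = 0.0963). The probe set of ZNF468 is of the kind made for 1 transcript.

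ZNF177, an isolated gene at 9.47 Mb on the short arm, had the smallest adjusted p of the members in the TC32 clones. It was 2.45, 3.79 and 4.35 in TC32 clones C1, C4 and CP, against -0.39, -0.46 and -0.46 in parental TC32. In TC71 it was -0.23, 0.00 and -0.65 in the clones, against 0.20, 0.62 and -0.30 in the parental arrays. The TC32 clones stood above the other 15 arrays of the series, which lay between -0.65 and 0.76. The rise in TC32 was 3.96 (SE 0.38, adjusted p = 0.00027 by limma), while the change in TC71 was -0.47 (adjusted p = 0.767). The difference between the lines was 4.43 (SE 0.54, adjusted p = 0.00657). Both calls held in every fit that left out 1 array, with adjusted p up to 0.0025 for TC32 and 0.027 for the difference. Both were lost when the compared groups alone were fitted (adjusted p = 0.075 and 0.112), as were those of ZNF83 (0.0897 in TC32, 0.324 in TC71 and 0.162 for the difference).

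ZNF432, in the same cluster as ZNF83 at 52.53 Mb, rose in the TC32 clones by 2.18 (SE 0.47, adjusted p = 0.0177 by limma). Its values were 2.46, 3.31 and 0.80 in clones C1, C4 and CP, against 0.02, -0.01 and 0.01 in parental TC32. After 72 h the TC32 arrays stood at 0.05, 0.10 and 1.32, and the 9 TC71 arrays lay between -0.26 and 0.04. The call was lost in 3 of 6 fits that left out 1 array: without clone C4 (change 1.62, adjusted p = 0.0563), TC32 parental 2 (adjusted p = 0.0662) or TC32 parental 3 (adjusted p = 0.0703). The difference between the lines, 2.27 on all arrays (adjusted p = 0.19), passed without clone CP (2.97, adjusted p = 0.0138).

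ZNF573, an isolated gene at 38.23 Mb, had a difference nearly as large as that of ZNF177 with far more spread. It was 0.66, 2.68 and 1.95 in the TC32 clones against 0.04, -2.98 and -2.48 in parental TC32, a change of 3.57 (SE 1.10, adjusted p = 0.0719 by limma). Without TC32 parental 1 and TC71 parental 2 that change was 4.49 and passed (adjusted p = 0.0324). The clones were not alone in this: after 72 h the TC32 arrays stood at -0.55, 0.15 and -0.11, also above TC32 parental 2 and 3. That 72 h change of 1.64 was the largest of any member in TC32 and was not called. In TC71 the clones went apart from each other: C3 was 1.80, C4A -1.51 and C5 -3.37, against -0.57, 0.75 and -1.15 in the parental arrays.

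**Figure D2:**
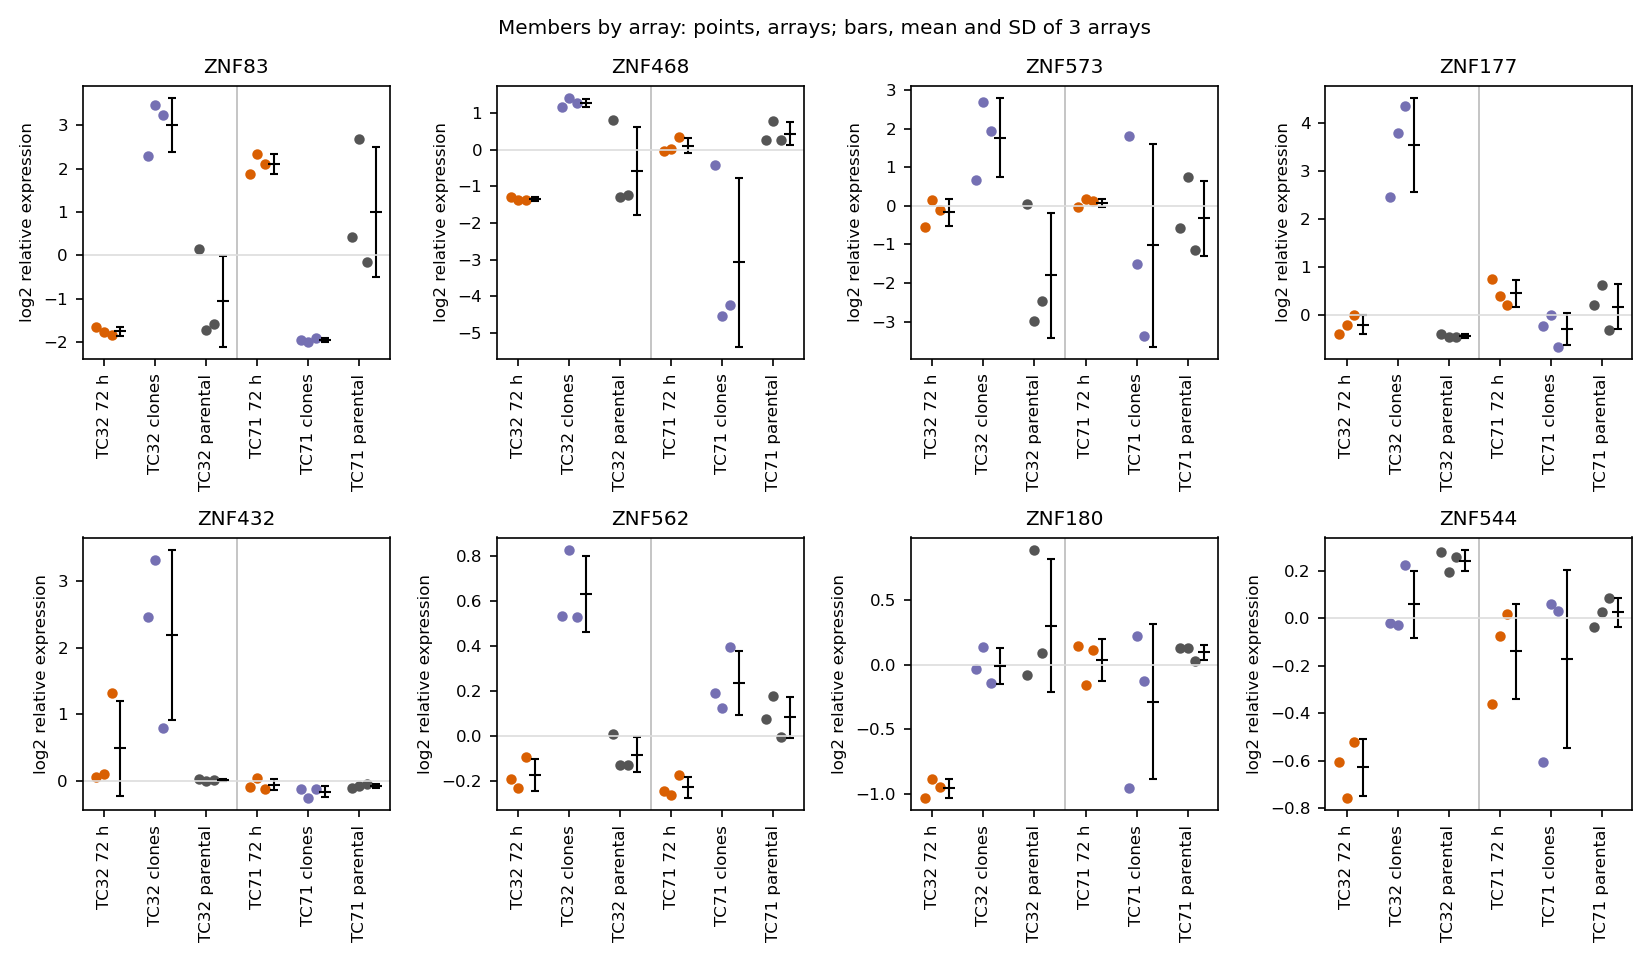
Log2 expression relative to the median of 18 arrays for 8 members, with a point for each array and the mean and SD of 3 arrays as a bar. Within each line the 72 h arrays come first, then the clones, then the parental arrays; ZNF83 in the TC32 clones lies between 2.30 and 3.47, and in the TC71 clones between -2.00 and -1.91.

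In all, 6 of the 102 members rose in the TC32 clones and none fell. That is 5.88% of the members, against 6.31% of all genes called in either direction, 3.19% called higher and 3.12% called lower. Besides ZNF83, ZNF177 and ZNF432 these were smaller rises. ZNF562 was 0.53, 0.83 and 0.53 in the clones against 0.01, -0.13 and -0.13 in parental TC32 (change 0.71, SE 0.09, adjusted p = 0.00118). ZNF274, which in human cells is known to bring SETDB1 to the 3′ ends of zinc finger genes, was 0.45, 0.57 and 0.26 against -0.12, -0.0004 and -0.41 (change 0.60, SE 0.13, adjusted p = 0.0144). ZNF574 was 0.29, 0.30 and 0.30 against 0.21, 0.00 and 0.02 (change 0.22, SE 0.05, adjusted p = 0.0236). The clones of all 3 genes lay above their parental arrays. ZNF274 lost its call without TC32 parental 3 or clone C4 and ZNF574 in 4 of 6 fits that left out 1 array, while ZNF562 kept its call in all 6. The difference between the lines passed for none of the 3 on all arrays. Without TC32 parental 1 it passed for ZNF562 (0.61, adjusted p = 0.035), ZNF274 (0.83, adjusted p = 0.0483) and ZNF574 (0.31, adjusted p = 0.0145). With TC71 parental 2 left out as well, it passed only for ZNF574 (0.32, adjusted p = 0.0304 by limma). With the compared groups alone fitted, no member was called in the TC32 clones. An unadjusted p under 0.05 was found for 14 members (13.7%), against 19.8% of all genes.

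In the TC32 clones 80 of 102 changes were above 0, against 7747 of 12750 over all genes. Among members with an SD of at least 0.1 it was 49 of 62, with a median of 0.22, against 4230 of 8132 with a median of 0.01 over all genes of that SD. The clones were not alike in this: 44 of the 62 were above the parental mean in C4 (median 0.39) and 47 in CP (median 0.13), but 28 in C1 (median -0.0034). That SD includes the clones, so a gene such as ZNF345 passed the filter through its values in C4 and CP. The counts and medians under the filter are therefore no support of their own. The median change over the 3 clones was -0.03 over 116 ZNF genes of other chromosomes and 0.12 over 377 other genes of chromosome 19. Clones and parental arrays did not overlap for 17 members (16.7%), 15 of them higher in the clones (14.7%) and 2 lower, against 21.2%, 11% and 10.1% of all genes. The share separated was below that of the array, and the share separated upward above it.

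In the TC71 clones ZNF83 was the only member called: 0 rose and 1 fell, 0.980% of the members against 1.09% of all genes. Of the members, 7 had an unadjusted p under 0.05 (6.86%), against 11.2% of all genes. Clones and parental arrays did not overlap for 38 members (37.3%), 37 of them lower in the clones and 1 higher, against 41.2%, 35.5% and 5.72% of all genes. Most of those 37 differences were below 0.1 in size, and the same tilt ran through the array. ZNF813, close to ZNF468 at 54.00 Mb, was -2.17, -0.74 and -0.10 in the clones against 0.60, 0.50 and 0.28 in parental TC71 (change -1.46, adjusted p = 0.21). The difference between the lines in the clones' change was called for 2 members (1.96%), ZNF83 and ZNF177, against 0.235% of all genes.

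**Figure D3:**
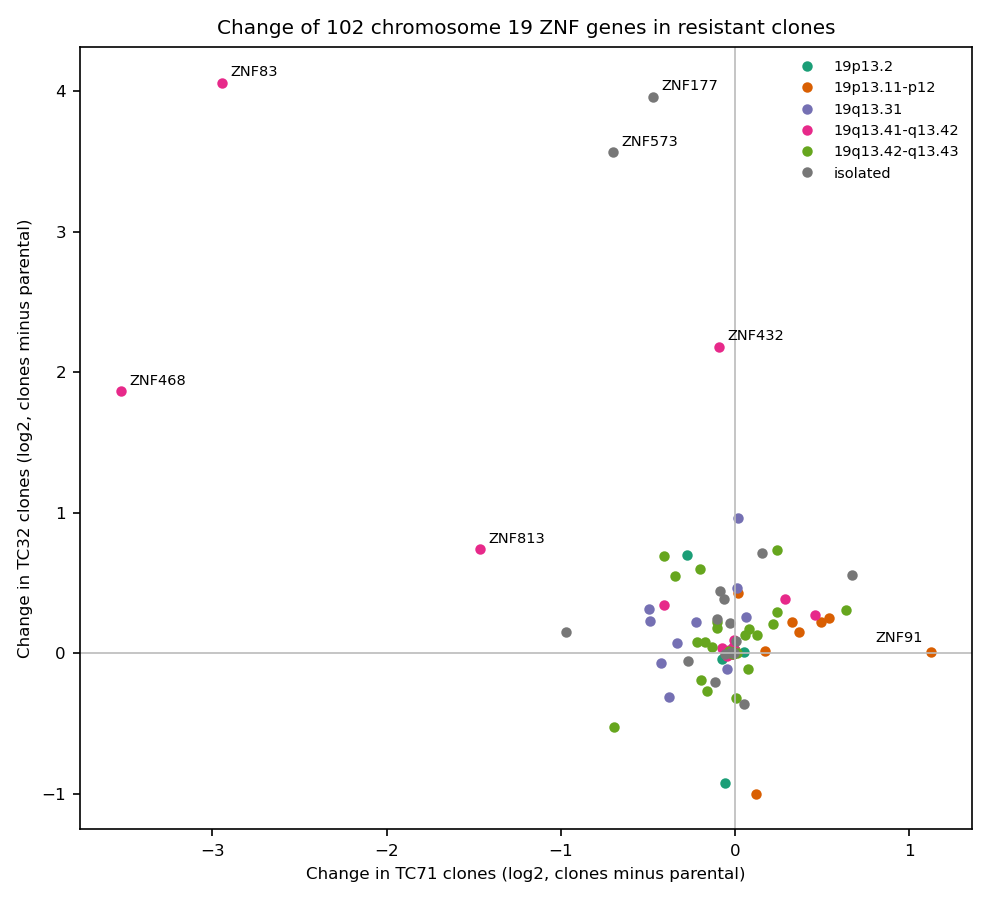
Change of each of the 102 members in the clones of TC71 (horizontal axis) and of TC32 (vertical axis), in log2, clones minus parental arrays, coloured by cluster. Most genes lie near 0 in both lines; ZNF83 sits at 4.06 in TC32 and -2.94 in TC71, and ZNF177, ZNF573 and ZNF432 lie high in TC32 with TC71 changes between -0.70 and -0.09.

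Single clones differed by cluster. The counts below are of members at least 2-fold above or below the parental mean of the line, which with 1 array per clone has no test. TC32 clone C4 had 9 members higher (8.82%, against 4.01% of all genes) and none lower (4.27% of all genes). Clone C1 had 5 higher (2.31% of all genes) and 1 lower (2.69%), and clone CP 6 higher (3.65%) and 2 lower (3.64%). ZNF177, ZNF573, ZNF83 and ZNF468 were among the higher members in all 3 TC32 clones. The untreated array TC32 parental 1 also passed that mark for ZNF573 (1.85), ZNF468 (1.40) and ZNF83 (1.21), but not for ZNF177 (0.05). The share of all genes past the mark in several clones of a line is not given here. In TC71, clones C4A and C5 had 6 lower members each (5.88%), against 2.95% and 1.80% of all genes, with ZNF83, ZNF468, ZNF573 and ZNF426 in both. Clones C4A and C5 had 2 and 3 higher members, against 3.31% and 2.03% of all genes. The untreated array TC71 parental 3 was itself past the lower mark for ZNF83 (-1.14).

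TC71 clone C3 had the most members past that mark of the 6 clones. It had 12 members at least 2-fold lower (11.8%, against 3.31% of all genes) and 5 higher (4.90%, against 3.55%), and the 2 groups came from different places. Higher members were ZNF91, ZNF43, ZNF93 and ZNF253 of the 19p13.11-p12 cluster, and ZNF573. Of the 12 lower members, 4 lay in 19q13.31 (ZNF428, ZNF45, ZNF227 and ZNF180), 5 in 19q13.42-q13.43 (ZNF419, ZNF134, ZNF211, ZNF551 and ZNF329) and 2, ZNF83 and ZNF813, in 19q13.41-q13.42. The other, ZNF136, is in 19p13.2.

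ZNF91, known in human cells as a repressor of SVA retrotransposons, was 3.43 in clone C3, while the other 17 arrays lay between -0.04 and 0.09. ZNF43 was 1.71 above the parental mean in C3, ZNF93, known in human cells as a repressor of LINE-1 elements, 1.5 above, and ZNF253 1.47 above. In the same cluster ZNF85 was 0.98, ZNF430 0.84 and ZNF675 0.70 above it. ZNF14 was 0.61 above it, which is no rise of C3 alone: clone C4A was at 0.58, and the TC71 parental arrays lay at 0.93, 0.19 and -1.12. All 9 members of the cluster with an SD of at least 0.1 were higher in C3, ZNF506 by only 0.0016. That SD includes C3, so a gene such as ZNF91 passed the filter through its value there, and the count is no support of its own. The median over the 15 members was 0.61, the value of ZNF14. The other 6 members of the cluster, ZNF682, ZNF208, ZNF257, ZNF493, ZNF492 and ZNF254, had an SD under 0.1 and lay between -0.04 and -0.01.

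The kinds of probe set for these closely related genes did not behave alike. In C3 the single-transcript probe sets of the cluster held 1 of 6 at least 2-fold higher, ZNF91, and their median was -0.01. Among the probe sets open to cross-reading, 2 of 9 of suffix x and 1 of 2 of suffix s passed that mark. For ZNF43 the 2 probe sets gave 2.63 and 0.80, and for ZNF93 2.56 and 0.44. How far probes for one gene read another was not tested. Without TC71 parental 3 the cluster's median was 0.056.

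In clone C3 the long arm clusters 19q13.31 and 19q13.42-q13.43 ran the other way. In 19q13.41-q13.42 the median over 19 members was -0.03, and the members spread from -2.95 to 0.68. All 14 members of 19q13.31 were below the parental mean, 12 of them with an SD of at least 0.1, and the median over the 14 was -0.40. The furthest were ZNF227 at -1.56 and ZNF45 at -1.37. In 19q13.42-q13.43 17 of the 19 members with that SD, which again includes C3, were lower. The median over all 32 members was -0.17, and -0.049 after another quantile normalization. ZNF551 (-1.49) and ZNF211 (-1.42) were furthest. Genes of the long arm that are no members lay lower too in this clone: the median of 178 of them with an SD of at least 0.1 was -0.22, against -0.02 for 199 such genes of the short arm and -0.01 over all genes. In the other 2 TC71 clones the long arm median was -0.0007 and -0.01. Only 2 other genes of that SD lie inside the 19q13.31 cluster, and in C3 they were -0.75 (ZNF112, a zinc finger gene under an older symbol in the annotation) and -0.13 (PLAUR, the urokinase receptor). Whether gene dosage differs between clones was not tested.

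**Figure D4:**
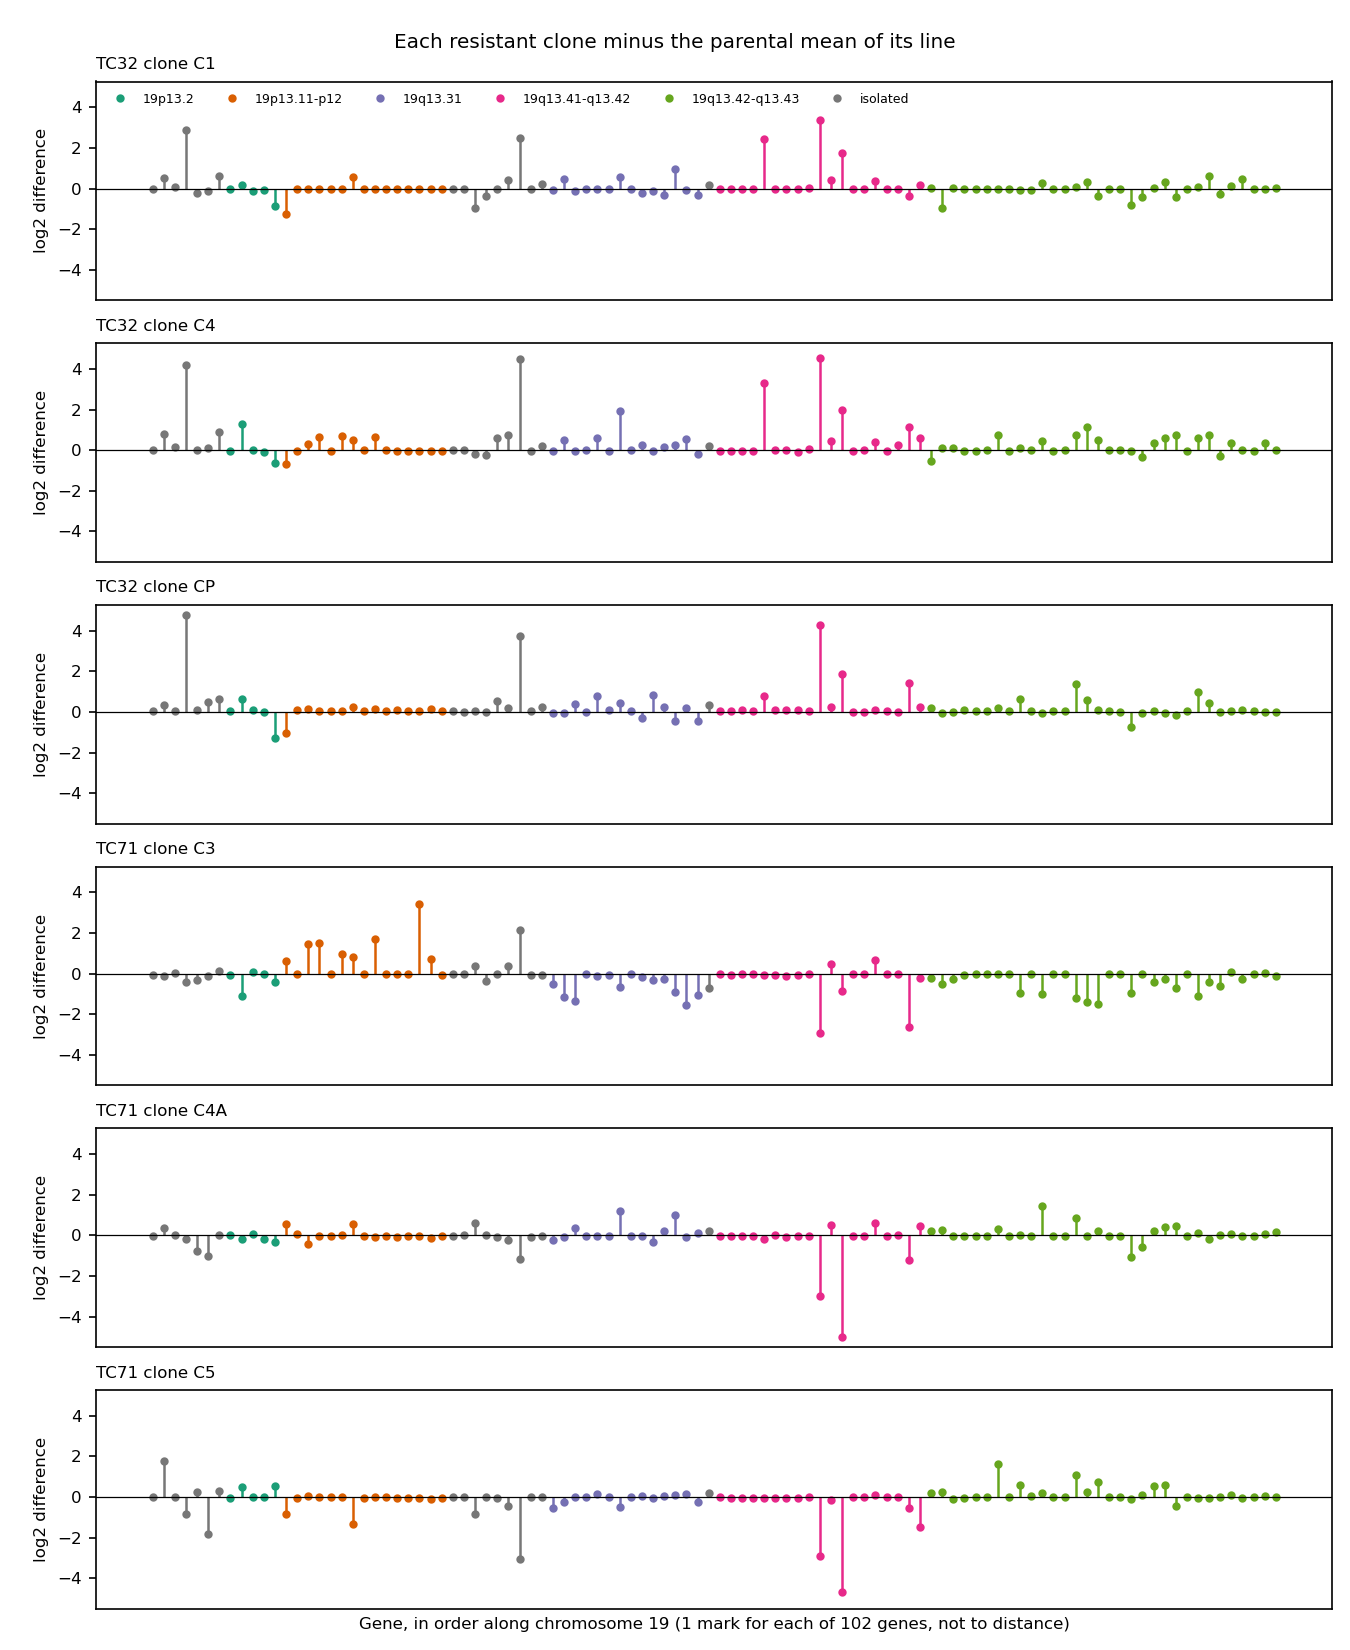
Log2 difference of each clone's array from the parental mean of its line, for the 102 members in order along chromosome 19, one panel per clone and 1 mark per gene (not to distance), coloured by cluster. In TC71 clone C3 the members of 19p13.11-p12 reach 3.43 while all 14 of 19q13.31 lie below 0, a split that the other 5 panels do not show.

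After 72 h in TC32, 2 members fell and none rose, 1.96% of the members against 2.20% of all genes called in either direction, 1.07% called lower and 1.14% called higher. An unadjusted p under 0.05 was found for 8 members (7.84%), against 14.8% of all genes. ZNF180, at the end of the 19q13.31 cluster, was -1.03, -0.89 and -0.95 after 72 h against -0.08, 0.89 and 0.09 in parental TC32 (change -1.26, SE 0.27, adjusted p = 0.0307 by limma). ZNF544, in 19q13.42-q13.43, was -0.60, -0.76 and -0.52 against 0.28, 0.19 and 0.26 (change -0.87, SE 0.15, adjusted p = 0.0126). Neither gene's groups overlapped. The call of ZNF180 was lost in 4 of 6 fits that left out 1 array (adjusted p up to 0.113), and that of ZNF544 without TC32 72 h array 2 (adjusted p = 0.0599) or without TC32 parental 1 and TC71 parental 2 (adjusted p = 0.0559). With those last 2 arrays left out, ZNF586 was called instead, at -1.52 (adjusted p = 0.0475).

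In the 19q13.31 cluster 13 of 14 members had a change below 0 after 72 h in TC32, with a median of -0.34, and the cluster's medians on the 3 arrays were -0.26, -0.28 and -0.27 relative to the parental mean. Over the 12 of these members with an SD of at least 0.1 the median change was -0.45, against 0.003 over all genes with that SD and 0.09 over ZNF genes of other chromosomes. The same genes had a median change of 0.20 in TC71. That SD includes the 72 h arrays, so the filter is not independent of these changes. ZNF222, the most variable gene of the cluster, was -0.93, -1.65 and -0.93 after 72 h against -0.81, -0.0043 and -0.16 in parental TC32, and 0.24, 1.91 and 0.61 against 0.00, 0.20 and -0.73 in TC71. Its changes of -0.85 and 1.10 did not pass (adjusted p = 0.622 and 0.559 by limma), nor did the difference between the lines (-1.94, adjusted p = 0.535). TC32 parental 1 again stood apart, with a cluster median of -0.19, against 0.03 and 0.10 on TC32 parental 2 and 3. Over all members the groups did not overlap for 20 (19.6%, against 20.2% of all genes): 15 were lower (14.7%, against 9.85%) and 5 higher (4.90%, against 10.4%).

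After 72 h in TC71 no member was called, where 0.149% of all genes were. An unadjusted p under 0.05 was found for 7 members (6.86%), against 10.6% of all genes, led by ZNF562 with a change of -0.31 (adjusted p = 0.176 by limma). The groups did not overlap for 18 members (17.6%), 13 of them higher and 5 lower, against 25.2%, 13.3% and 12% of all genes. ZNF134, the most variable gene of 19q13.42-q13.43, was 0.56, 0.66 and 0.77 after 72 h against 0.00, -0.43 and 0.01 in parental TC71 (change 0.81, SE 0.48, adjusted p = 0.646). Without TC32 parental 1 and TC71 parental 2, ZNF83 rose by 1.97 in TC71 after 72 h (adjusted p = 0.0183). The difference between the lines in the 72 h change was called for no member and for 0.376% of all genes, with 7 members at an unadjusted p under 0.05 (6.86%, against 8% of all genes).

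Between the untreated lines no member was called (0.0471% of all genes), and 2 members had an unadjusted p under 0.05, ZNF83 and ZNF234 (0.42 higher in TC32, adjusted p = 0.592 by limma), where 7.69% of all genes had one. Without TC32 parental 1 and TC71 parental 2, the ZNF83 difference was -1.80 (TC32 minus TC71) and passed (adjusted p = 0.0151). The parental arrays did not overlap for 35 members (34.3%), 32 of them higher in TC32 and 3 lower, against 32%, 24.9% and 7.04% of all genes. In the remaining cluster, 19p13.2, no member was called on all arrays with the values as deposited. ZNF443 came closest: it was -0.19, 0.02 and -0.64 in TC32 clones C1, C4 and CP against 0.65, 0.66 and 0.64 in parental TC32, with no overlap (change -0.92, adjusted p = 0.0565 by limma). It passed with genes of an SD under 0.1 left out (adjusted p = 0.0307) and after another quantile normalization (change -1.18, adjusted p = 0.0396). The most variable gene of the cluster, ZNF136, was 0.10, 1.19 and 0.54 in TC32 clones C1, C4 and CP against 0.04, -0.27 and -0.04 in parental TC32, and -0.99, -0.06 and 0.63 in TC71 clones C3, C4A and C5 against 0.35, -0.06 and 0.13 in parental TC71.

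Of 36 listed genes of the silencing machinery of KRAB zinc finger proteins, 33 were measured. They include ZNF274, itself one of the 102 members, so its call is counted in both sets. After 72 h in TC32 1 rose and none fell (3.03%, against 2.20% of all genes): CHD4, the remodelling ATPase of the NuRD complex, was 0.37, 0.61 and 0.64 against -0.19, 0.07 and -0.03 in parental TC32 (change 0.59, SE 0.14, adjusted p = 0.0493 by limma). In TC71 it was -0.51, -0.66 and -0.62 after 72 h against 0.05, -0.61 and -0.28 in the parental arrays, a change that did not pass (-0.32, adjusted p = 0.435). The difference between the lines did not pass either (0.91, adjusted p = 0.0822). In the TC32 clones 1 rose, ZNF274 (above), and 1 fell (6.06% in all, against 6.31%): the deacetylase HDAC1 was -0.04, -0.58 and -0.25 against 0.26, 0.33 and 0.23 (change -0.56, SE 0.14, adjusted p = 0.0318). None of the 33 was called in either TC71 comparison, between the untreated lines or in either difference between the lines. An unadjusted p under 0.05 was more frequent on this list than on the array in 4 comparisons: 33.3% against 14.8% after 72 h in TC32, 18.2% against 10.6% after 72 h in TC71, 21.2% against 19.8% in the TC32 clones and 21.2% against 11.2% in the TC71 clones. It was less frequent between the untreated lines (3.03% against 7.69%) and in the line differences at 72 h (6.06% against 8%) and in clones (6.06% against 11.9%). The shares are not of like genes: 31 of the 33 had an SD of at least 0.1, against 8132 of 12750 on the array.

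TRIM28, the scaffold itself and a chromosome 19 gene, averaged 0.23 ± 0.20 in the TC32 clones against 0.03 ± 0.05 in parental TC32, and -0.15 ± 0.27 in the TC71 clones against -0.11 ± 0.28 in parental TC71 (SD, n = 3 each). Its changes in the 4 comparisons with parental cells lay between -0.16 and 0.20, none called. SETDB1 averaged 0.21 ± 0.21 in the TC32 clones against -0.003 ± 0.06, and -0.02 ± 0.53 in the TC71 clones against -0.14 ± 0.08. CBX5, which encodes an HP1 protein, spread widely in TC32, at 0.13 ± 0.69 in the clones against -0.62 ± 0.74 in the parental arrays (change 0.75, adjusted p = 0.229 by limma). In the TC71 clones it was 0.22 ± 0.05 against 0.09 ± 0.15.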

How the data were processed

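The authors hybridised labelled total RNA to the arrays and, per the labels, computed the values in GeneSpring GX 12.1 with default settings. The deposited log2 values are relative to each probe set's median over the 18 arrays. The series holds them in 2 identical tables. Background correction and normalization steps are not given in the sources used here, and the number of arrays limits the precision.

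Of 22277 probe sets, 62 controls, 583 with several genes and 1258 with none were left out. The other 20374 were averaged into 12750 genes. A limma model (limma 3.58.1 in R 4.3.3) of 6 group means on all 18 arrays gave moderated tests, with 12 residual and 0.83 prior degrees of freedom. P-values were adjusted by Benjamini-Hochberg over all 12750 genes; "rose" and "fell" are used only below an adjusted p of 0.05. Differences between lines are the change in TC32 minus that in TC71. The fit was tested on simulated data. Clones and parental arrays of a line share their parental arrays with the 72 h comparison.

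Members, lists and clusters were chosen with earlier results of these data known. Single genes were named if past the threshold, if most variable in a cluster, or if ZNF83, TRIM28, SETDB1 or CBX5. ZNF468, ZNF573, ZNF813 and other genes named outside that rule were chosen after their values were seen. Alternatives were another quantile normalization, median centring, dropping probe sets open to cross-reading, the most variable probe set, an SD filter, a stricter threshold, the compared groups alone, a replicate block and leaving out arrays.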

Additional observations from a re-analysis of the deposited data

Results flagged for a closer look

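The change in resistant clones differed between the lines, by the test of the difference itself, for ZNF83 (7.01 more in TC32 than in TC71, adjusted p = 0.00657 by limma) and ZNF177 (4.43, adjusted p = 0.00657).

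In other cases among the 102 members, every array of one line lay on the other side of its parental mean from every array of the second line, while the test of the difference did not pass. The share of all genes with this pattern is not given here, so the cases cannot be read as a trait of the members. After 72 h these were ZNF222 (-1.94, TC32 minus TC71, adjusted p = 0.535 by limma), ZNF83 (-1.82, adjusted p = 0.678), ZNF227 (-1.24, adjusted p = 0.507), ZNF419 (-1.22, adjusted p = 0.739), ZNF45 (-0.83, adjusted p = 0.785) and ZNF552 (-0.70, adjusted p = 0.426). For ZNF83 the TC32 72 h arrays (-0.60, -0.72 and -0.79 from the parental mean) lay near TC32 parental 2 and 3 (-0.67 and -0.54), while parental 1 was at 1.21. Its TC71 72 h arrays (0.89, 1.35 and 1.12) lay inside the TC71 parental range (-1.14 to 1.70). In the clones they were ZNF468 (5.39, adjusted p = 0.0885), ZNF432 (2.27, adjusted p = 0.19), ZNF274 (0.81, adjusted p = 0.0871), ZNF574 (0.25, adjusted p = 0.183) and ZNF137P (0.06, adjusted p = 0.322).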

How the results depend on the processing

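Counts of members called rest on few genes and on a spread shared by all 6 groups. In the order TC32 72 h, TC71 72 h, TC32 clones, TC71 clones, untreated lines, line difference at 72 h and line difference in clones, the reported counts were 2, 0, 6, 1, 0, 0 and 2. Fits that left out 1 array gave 0 to 3, 0, 3 to 8, 0 to 2, 0, 0 and 2 to 6. Fits of the compared groups alone gave 1 for TC32 72 h, 0 for the clones of TC32, the clones of TC71 and their difference, and 2 for the line difference at 72 h. Without probe sets of suffix x and s, 61 members remained, and the counts were 0 for TC32 72 h, 2 for the TC32 clones, 0 for the TC71 clones and 0 for the line difference in clones. ZNF83, ZNF177, ZNF432, ZNF274, ZNF180 and ZNF544 have only such probe sets, so these genes were absent from that setting and could not be called in it. At an adjusted p under 0.01 the counts were 0 for TC32 72 h, 3 for the TC32 clones and 0 for the TC71 clones. Another quantile normalization gave 1 for TC71 72 h and 0 for the TC71 clones, median centring 0 for the TC71 clones, and an SD filter of 0.1 gave 2 there. Without TC32 parental 1 and TC71 parental 2 the count was 1 for TC71 72 h and 1 between the untreated lines. In 2 settings chosen after seeing the data, leaving out TC71 72 h array 2 and TC32 clone C4 gave 3 for the TC32 clones and 0 for the TC71 clones, and averaging TC71 72 h arrays 1 and 3 gave 0 for the TC71 clones. None of the called changes of named genes reversed its sign, and changes that were not called were not checked for this. The cause of these moves was not tested, beyond the smaller number of genes or arrays where a setting has fewer.

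Replicate numbers do not pair the arrays by their labels. Deviations from the group means of same-numbered 72 h and parental arrays correlated by 0.19, 0.01 and 0.33 in TC32 and by -0.02, 0.04 and 0.04 in TC71, and not every array correlated best with its own number. With a replicate block the counts were 3 for TC32 72 h, 4 for TC71 72 h and 1 for the line difference at 72 h.

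In TC71 clone C3 the median of 19p13.11-p12 (0.61) was 0.57 after another quantile normalization, 0.63 after median centring, -0.015 without suffixes x and s (6 members) and 0.056 to 0.68 with 1 parental array left out. That of 19q13.31 (-0.40) was -0.34 after another quantile normalization, -0.28 without suffixes x and s, -0.31 with the most variable probe set and -0.42 to -0.38 with 1 parental array left out. That of 19q13.42-q13.43 (-0.17) was -0.049 after another quantile normalization, -0.15 after centring, -0.14 without those suffixes and -0.18 to -0.11 with 1 parental array left out.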
